A study of Homo sapiens with 6 samples.

Results

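The regions described here were 1096 stretches of open chromatin that were more accessible in the GCTM-2highCD9highEPCAMhigh population of WA09 cells than in the GCTM-2midCD9mid population, in each of 3 same-numbered pairs of libraries. They were chosen by measured values. An autosomal region was taken when the log2 ratio of high over mid, with a pseudocount of 0.5 added to both levels, was 0.6 or more in every pair and the mean level over the 6 libraries was 2 or more CPM (the count of a region divided by the total of its library and multiplied by 1000000). Of 118556 regions in the table, 98989 were autosomal and reached that mean level (the eligible regions), and the 1096 made up 1.11% of the eligible and 0.924% of all regions. A further 170 autosomal regions passed the 3 ratios below a mean CPM of 2 and were not taken. Since these ratios chose the regions, all values of high against mid below are descriptions and carry no test of the selected regions.

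The assay was FAST-ATAC. Its enzyme, the Tn5 transposase, enters open chromatin and leaves sequencing adapters there. WA09 is an established human embryonic stem cell line, and its cells were sorted by flow cytometry on surface antigens of pluripotent cells, with 3 libraries of the high and 3 of the mid population (named low in the sample titles). Both populations came from this 1 line, without a treatment, and all libraries were amplified for 9 cycles. The study asked how the chromatin of the high population, which has a high capacity for self-renewal, differs from that of the mid population.

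Open chromatin marks DNA that nucleosomes leave exposed. It is found at promoters, which tend to be broad and open in many cell types, and at enhancers and other distal elements, which tend to be narrower and to differ more between cell states. Enhancers that serve the same gene can lie far apart along a chromosome, and neighbouring elements can open or close together.

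The libraries held 15486251 to 26225539 counts in the high and 23091028 to 29025274 in the mid population. Same-numbered libraries deviated together from their population means, and no pair of replicates agreed within sampling noise. Positions are given in hg19, and no gene, promoter or sequence was assigned to a region because the annotation at hand is of another build. Which genes lie at these regions was therefore not analysed here. Accessibility from fewer open cells and from less access per cell cannot be told apart in such bulk libraries.

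In the high population the 1096 regions had a median level of 7.49, 6.04 and 5.61 CPM in replicates 1, 2 and 3. Their median in the mid population was 3.34, 2.99 and 3.0 CPM. All eligible regions together lay between 4.20 and 5.04 CPM in every library, so the selected regions stood above the general level in the high libraries and below it in the mid libraries. The selected regions took up 0.997%, 0.822% and 0.777% of all counts in high replicates 1, 2 and 3, against 0.414% to 0.468% in the mid libraries.

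**Figure D1:**
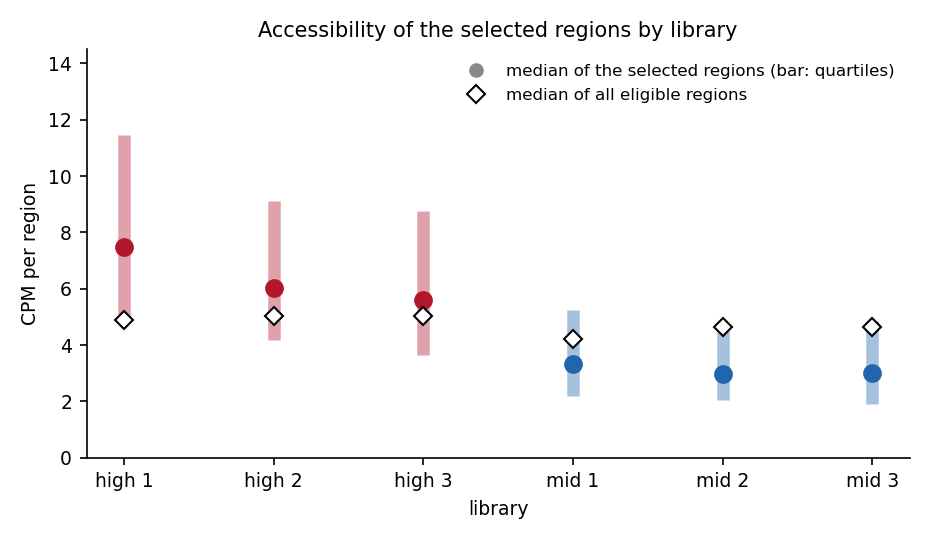
Median CPM per region (y axis) of the 1096 selected regions in each of the 6 libraries (x axis, circles, with bars from the lower to the upper quartile) and of all 98989 eligible regions (diamonds). The circles lie above the diamonds in the 3 high libraries, furthest in high replicate 1 at 7.49 CPM, and below them in the 3 mid libraries.

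The difference was not of the same size in the 3 pairs. The median log2 ratio of the selected regions was 0.95 in pair 1, 0.86 in pair 2 and 0.76 in pair 3, where all eligible regions had medians of 0.11, 0.08 and 0.08. Pair 1 gave the largest of the 3 ratios in 597 regions (54.5%, against 39.3% of the eligible regions), and pair 3 gave the smallest in 572 (52.2%, against 35.4%). Pair 3 thus set most often whether a region was taken. The high libraries of pairs 1 and 2 were also the most shallow of the 6. Scaling by total counts also weighed unequally on the pairs. TMM library sizes shifted the log2 ratios of the eligible regions by a median of -0.13, -0.06 and -0.05 in pairs 1 to 3. The parts of depth and of scaling in this order were not tested.

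Most of the selected regions stood close to the limit. In 587 of them the smallest of the 3 ratios was under 0.7, and a further 1198 eligible regions had their smallest ratio between 0.5 and 0.6. Only 220 regions (20.1%) reached 0.8 in every pair, and 35 (3.19%) reached 1. With TMM library sizes in place of total counts, 622 of the 1096 met the limits, and 331 did so when every high library had to exceed every mid library by 0.6. The median region had 129, 93.5 and 147 counts in the high replicates and 97, 69 and 79 in the mid replicates, which gives a median counting error of the log2 ratio of 0.20, 0.23 and 0.20 in pairs 1 to 3. By that error alone, 1070 of the regions exceeded 0 in each pair by 1.96 standard errors, but only 40 exceeded 0.6 by as much. These errors cover counting only. They leave out the variation between replicates, which was larger than sampling noise for every pair of replicates of a population. Just inside the limit, chr3:152214093-152214988 and chr4:59956925-59958097 had smallest ratios that both round to 0.60. Just outside it, chr7:118815730-118816584 and chr8:77619728-77620582 also round to 0.60, so nothing but the limit separates these regions.

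Every high library exceeded every mid library in 1016 of the 1096 regions, where 18.4% of all eligible regions had this order. All 1096 were above 0 in all 3 pairs, as the choice requires, against 32.4% of the eligible regions. Nothing is read from either share, since the choice used the same libraries. In the other 80 regions the libraries overlapped although every pair differed, and the same libraries were mostly the ones that overlapped. Mid replicate 1 was the highest mid library in 71 of the 80, and high replicate 3 was the lowest high library in 53.

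The 5 regions with the largest smallest ratio show both patterns. At chr5:127772282-127773121 the level was 11.7, 6.52 and 4.73 CPM in high replicates 1 to 3 and 4.75, 2.25 and 1.56 CPM in mid replicates 1 to 3. Its log2 ratios of 1.21, 1.35 and 1.35 made it the region with the largest smallest ratio, yet its populations overlapped, because both libraries of number 1 were high and both of number 3 were low. At chr3:31082437-31083667 the high libraries had 29.6, 15.5 and 17.7 CPM and the mid libraries 12.7, 5.85 and 5.89 CPM. Here the populations did not overlap, although the libraries of number 1 again stood above the others in both populations. At chr2:144502502-144503207 the high libraries had 7.43, 4.26 and 3.85 CPM and the mid libraries 2.93, 1.60 and 1.4 CPM, with the same order.

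The remaining 2 of these 5 regions lay on chromosome 4. The region chr4:167636649-167637739 had 8.65, 9.36 and 6.18 CPM in the high and 2.34, 2.56 and 2.47 CPM in the mid libraries. Its mid libraries were almost level, its high libraries all stood far above them, and its mean level was 8.06 ± 1.67 CPM in the high against 2.46 ± 0.11 CPM in the mid population (SD, n = 3). Another selected region lay 7.44 kb away from it. At chr4:143879996-143880931 the levels were 7.72, 5.62 and 4.39 CPM in the high and 2.89, 1.82 and 1.71 CPM in the mid libraries, with no overlap.

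The 5 regions with the highest mean level were broader, and their ratios were smaller. The top region, chr1:214619334-214622380, had 47.2, 40.8 and 39.7 CPM in the high libraries and 29.97, 25.3 and 22.6 CPM in the mid libraries. At chr1:86072008-86074075 the high libraries were nearly level, at 45.8, 42.9 and 43.4 CPM, and the mid libraries had 27.5, 20.8 and 24.6 CPM. The populations did not overlap in either region, with 44.04 ± 1.51 against 24.3 ± 3.38 CPM (SD, n = 3) in the latter. At chr6:71997331-71999724 the levels were 45.8, 41.8 and 37.3 CPM against 23.8, 25.3 and 23.96 CPM. At chr12:89738206-89741808 they were 44.2, 38.9 and 41.5 CPM against 23.6, 23.2 and 23.2 CPM. At chr6:144650682-144653524 they were 38.6, 36.0 and 37.2 CPM against 22.3, 17.7 and 21.98 CPM. None of the 5 overlapped between populations, like 1016 of the 1096 selected regions and 18.4% of the eligible regions. The choice used the same libraries, so nothing is read from that. With 409 to 1139 counts in every library, the 5 have the smallest counting error among the selected regions.

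The selected regions were of intermediate width and rarely broad. Their median width was 929.5 bp (quartiles 765 and 1147.25 bp), and 968 bp (738 and 1461 bp) for all eligible regions. Regions of 2000 bp or more made up 1.82% of the selected and 13.9% of the eligible regions. Among regions of 800 to under 1500 bp, 15.7 to 15.9 of every 1000 eligible regions were selected, against 5.09 below 600 bp and 1.46 from 2000 bp. The 498 regions that met the same limits in the other direction were broader, with a median width of 2500 bp and 64.5% at 2000 bp or more. Per kb of width, the selected regions had a median of 5.02 CPM, close to the 4.80 CPM of the eligible regions and below the 10.3 CPM of the regions that were higher in the mid population.

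By mean level, selection was most frequent from 6 to under 10 CPM, with 17.2 per 1000, and fell to 0.969 per 1000 from 20 CPM upwards, where 12 regions were selected. In that top class 316 regions met the limits in favour of the mid population. Width and level are not independent of the choice, because a wider region gathers more counts and the pseudocount and the counting error weigh most on low regions. The widest selected region, chr6:15522072-15526842 (4771 bp), had 13.9, 26.7 and 23.3 CPM in the high and 8.48, 15.3 and 14.4 CPM in the mid libraries, so the libraries of number 1 were the lowest of both populations and the populations overlapped. The narrowest, chr5:19748651-19749129 (479 bp), had 11.9, 7.56 and 5.0 CPM in the high and 2.0, 2.99 and 2.43 CPM in the mid libraries, which did not overlap.

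**Figure D2:**
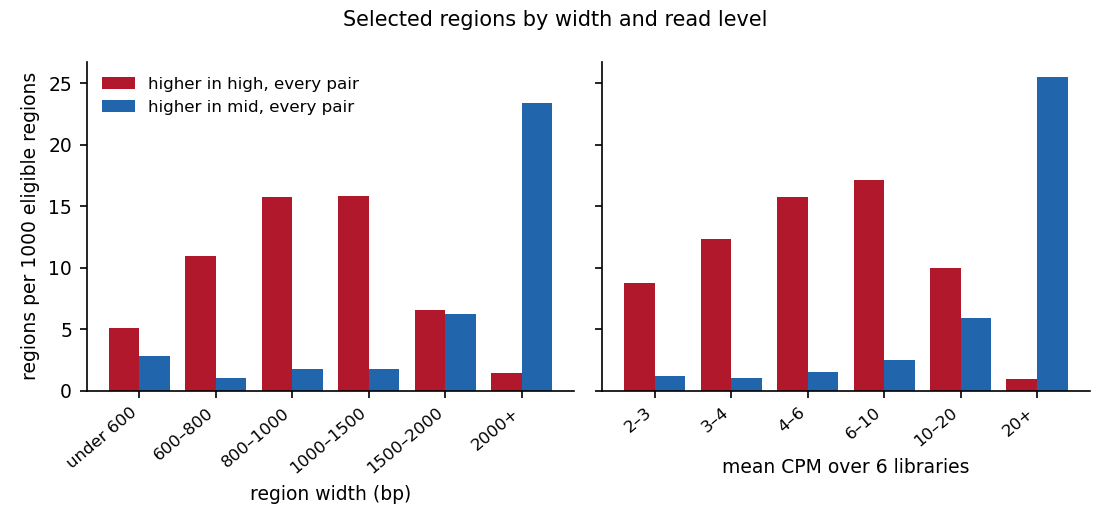
Regions per 1000 eligible regions (y axis) that met the limits in favour of the high population (red) or of the mid population (blue), by region width in bp (left) and by mean CPM (right). The red bars peak in the middle classes, at 15.9 per 1000 for 1000 to under 1500 bp and 17.2 per 1000 for 6 to under 10 CPM, and the blue bars rise to 23.4 per 1000 in the widest and 25.5 per 1000 in the highest class.

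The selected regions were spread unevenly over the chromosomes. Chromosome 4 held 161 of them among 5985 eligible regions (26.9 per 1000) and chromosome 13 held 64 among 2904 (22.04 per 1000), followed by chromosomes 5 and 3 with 16.6 and 16.5 per 1000. Those 4 chromosomes held 443 selected regions, 40.4% of all, with 22.3% of the eligible regions. At the other end, chromosomes 19 and 22 held none among 2920 and 1714 eligible regions, and chromosome 21 held 1 among 874. Chromosomes 15, 16, 17, 19, 20, 21 and 22 together held 31 (2.83%) with 17.7% of the eligible regions. Among regions under 1500 bp the order was the same, with 30.4 per 1000 on chromosome 4, 26.0 on chromosome 13, 2.46 on chromosome 17 and none on chromosomes 19 and 22, against 13.4 for all autosomes.

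The number per 1000 followed the GC content of the chromosome inversely, with a Spearman rho of -0.92 over the 22 autosomes, and the density of protein-coding genes less closely, with a rho of -0.68. Both are chromosome-wide values of GRCh38, and the 22 points share the same 6 libraries. The whole chromosomes moved with the selected regions. The median log2 ratio of all eligible regions was 0.41, 0.29 and 0.15 in pairs 1 to 3 on chromosome 4, and -0.50, -0.42 and -0.21 on chromosome 19. When the median of each chromosome was subtracted in every pair, chromosome 4 held 25 selected regions (4.18 per 1000), chromosome 19 held 9 (3.08 per 1000), 431 regions were selected in all, and the rho with GC content was -0.06. That subtraction removes the median differences between chromosomes by construction, so nothing is read from the loss of their order. With TMM library sizes, DESeq2 size factors and a loess fit on mean log2 CPM, the rho was -0.90, -0.91 and -0.92. The part of GC content in the shifts of whole chromosomes was not tested.

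**Figure D3:**
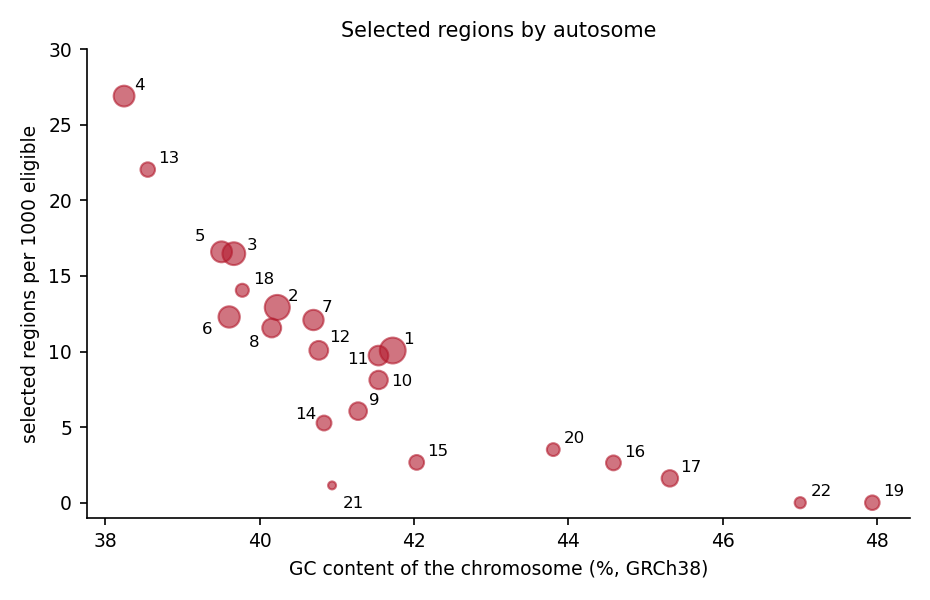
Selected regions per 1000 eligible regions (y axis) against the GC content of each autosome in percent (x axis), with point area in proportion to the number of eligible regions and the chromosome number beside each point. Chromosomes 4 and 13 stand at 26.9 and 22.04 per 1000 at the low end of GC content, and chromosomes 19 and 22 at 0 at the high end.

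Most of the selected regions had no other selected region close by. Within 100 kb, 188 (17.2%) had another one and 908 did not, and the 188 formed 72 groups of 2 and 13 loci of 3 or more. Both values moved with the settings, which also changed the number of regions chosen. With TMM library sizes they were 11.9% and 5 loci among 622 regions, and with DESeq2 size factors 9.84% and 4 among 569. With chromosome medians subtracted they were 5.80% and 2 among 431, and with no replicate block 6.65% and 1 among 331. With the median ratio of the eligible regions within 500 kb subtracted they were 2.01% and 0 among 199. On only 2 pairs they were 22.4% and 25 among 1748 regions without replicate 1 and 24.97% and 50 among 2203 without replicate 2. Without replicate 3 they were 53.8% and 349 among 5073. A larger set has more neighbours by its size alone, and no background share is given for each setting. No change in clustering is therefore read from these values. Of the eligible regions that were not selected, 6.51% had a selected region within 100 kb, or 8.68% when weighted to the chromosomes of the selected regions. The share of selected regions among eligible ones fell with distance from the nearest other selected region, from 4.60% within 2 kb and 3.15% at 10 to 50 kb to 2.18% at 100 to 500 kb and 0.739% beyond. The chromosomes on which those regions lay would give 1.43% to 1.49% in the classes up to 500 kb and 1.06% beyond. Of the 498 regions higher in the mid population, 52.6% lay within 100 kb of another. That share was not weighted by chromosome, and 221 of the 498 lay on chromosome 19. It may therefore restate how these regions were spread over the chromosomes.

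The gaps between selected regions of one group had a median of 40.7 kb, and 16 of the 103 gaps were 10 kb or less. The nearest neighbours were 183 bp apart. The selected regions lay in sparser stretches than other regions, with a median of 6 other eligible regions within 100 kb, against 9 for those not selected and 15 for those higher in the mid population. The nearest eligible region was at a median of 10.4 kb, against 7.10 kb for those not selected, and 11 selected regions had no eligible region within 100 kb. These comparisons were not weighted by chromosome, so they may restate how the selected regions were spread over the chromosomes.

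The regions around the selected ones moved the same way by smaller amounts. The 6370 eligible regions within 100 kb of a selected region, themselves not selected, had median log2 ratios of 0.44, 0.31 and 0.17 in pairs 1 to 3. For the 91523 regions farther away these medians were 0.08, 0.06 and 0.06. All 3 ratios were above 0 in 3507 of the near regions (55.1%) and in 29.96% of the far regions. The same held among regions under 1500 bp (54.1% near, 32.4% far) and of 2000 bp or more (58.2% near, 19.03% far), and the difference was smaller within chromosome 4 (58.6% near, 47.2% far). The far group was itself mixed. At 100 to 500 kb the medians were 0.39, 0.27 and 0.14, and 49.6% were above 0 in all pairs. Beyond 500 kb, on chromosomes with a selected region, they were 0.03, 0.03 and 0.06, and 26.8% were. The shared change thus reached well past 100 kb. Only 1 of the 498 regions higher in the mid population lay within 100 kb of a selected region. However, 221 of the 498 were on chromosome 19 and 22 on chromosome 22, where no region was selected. This count was not weighted by chromosome, so no local exclusion is read from it.

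**Figure D4:**
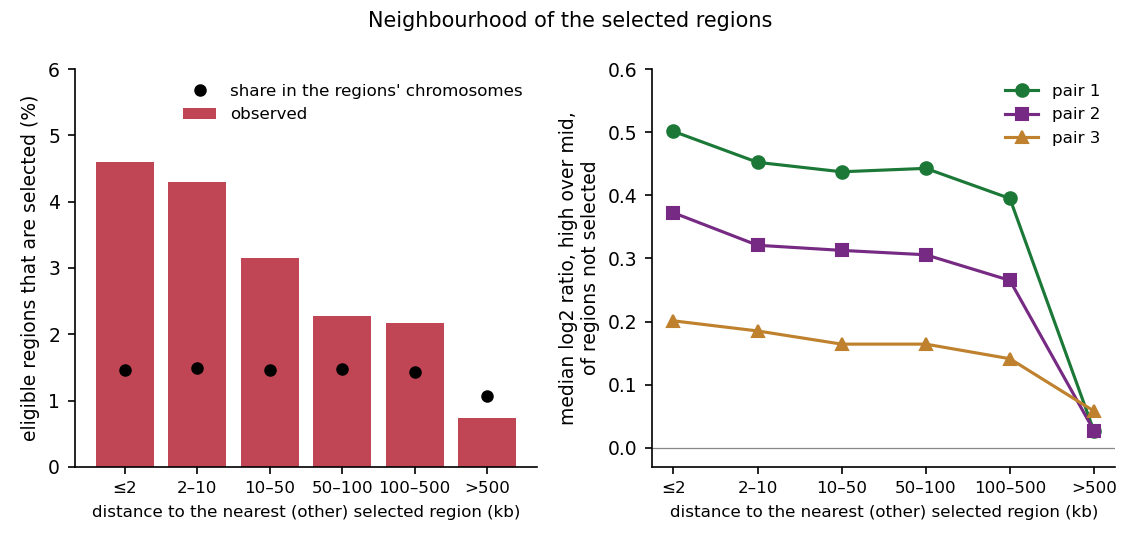
Left, percent of eligible regions that were selected (y axis, bars) by distance to the nearest other selected region in kb (x axis), with the share that the chromosomes of those regions would give (dots). Right, median log2 ratio of high over mid in pairs 1 to 3 for regions that were not selected, by the same distance. The bars fall from 4.60% to 0.739%, and in pair 1 the median falls from 0.50 within 2 kb to 0.39 at 100 to 500 kb and 0.03 beyond.

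The surrounding level was then set against each selected region. The median ratio of the other eligible regions within 500 kb was above 0 in all 3 pairs around 1019 of the 1096 regions (93.0%, against 50.8% around all eligible regions). It had a median over the selected regions of 0.52 in pair 1, 0.35 in pair 2 and 0.17 in pair 3. Above that level the selected regions had a median excess of 0.48, 0.55 and 0.61, and 1057 of them (96.4%, against 20.2% of all eligible regions) exceeded their surroundings in all pairs. Choosing regions on these ratios largely fixes that excess. The median of the surroundings was thus larger than the median excess in pair 1 and smaller in pairs 2 and 3. When the surrounding ratio was subtracted first, 199 regions met the limits, and 146 of these were among the 1096. Those 146 had median ratios of 1.19, 1.0 and 0.90 over surroundings of 0.31, 0.20 and 0.11. They included chr4:167636649-167637739, chr3:31082437-31083667 and chr2:144502502-144503207, and none of the 5 regions with the highest mean level. The region with the largest smallest ratio, chr5:127772282-127773121, was not among them, nor was chr4:143879996-143880931. Their smallest excess over the surroundings was 0.57 and 0.59, under the limit of 0.6. The widest region also remained, as its surroundings had ratios of only -0.16, 0.10 and 0.06.

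The 13 loci with 3 or more selected regions held 44 of the regions (4.01%), on 9 chromosomes. One held 5 selected regions, 3 held 4 and 9 held 3. They spanned 20.9 to 177 kb, with a median of 87.1 kb. Summed over the selected regions of a locus, the mean CPM of the high population was 1.75 to 2.27 times that of the mid population. In all, 42 of the 44 regions had no overlap between populations, where 18.4% of all eligible regions had none. The choice used the same libraries, so nothing is read from that count. Between the selected regions lay 46 other eligible regions, of which 29 were above 0 in all pairs, and in the 100 kb on either side 64 of 100 were.

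The largest locus, chr3:159516626-159616572, held 5 selected regions among 12 eligible regions. Their summed level was 49.9, 37.1 and 32.9 CPM in the high and 18.4, 19.2 and 17.1 CPM in the mid libraries. The high libraries were all above the mid libraries, by 39.97 ± 8.88 against 18.2 ± 1.08 CPM (SD, n = 3), and high replicate 1 was the highest. Near the centre of the locus, chr3:159570247-159571475 and chr3:159571987-159573066 were 0.511 kb apart. The log2 ratios in pairs 1 to 3 were 1.12, 0.84 and 0.76 in the former and 0.95, 1.10 and 1.21 in the latter, so they ran in opposite order over the pairs. The populations did not overlap in the former, but in the latter high replicate 3 (4.69 CPM) lay below mid replicate 1 (5.31 CPM). At the far end, chr3:159615907-159616572 had 8.94, 4.52 and 4.23 CPM in the high and 1.76, 2.08 and 1.97 CPM in the mid libraries. Not every region of the locus followed. At chr3:159546189-159546844 the ratios were -0.23, 0.51 and -0.16.

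The locus chr1:214510306-214622380 had the highest summed level, and it ended in the selected region with the highest mean CPM. Its 4 selected regions summed to 90.5, 86.7 and 88.1 CPM in the high and 53.8, 49.5 and 48.2 CPM in the mid libraries, which were level within each population. The ratios of its first region, chr1:214510306-214511742, were 1.03, 0.98 and 1.0, so this region gained about 2-fold in every pair. In the 100 kb on either side, 14 of 16 eligible regions were above 0 in all pairs, but only 2 of the 6 unselected regions inside the locus were.

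Another locus of chromosome 3, chr3:156252728-156399412, held 4 selected regions that summed to 65.0, 55.8 and 54.4 CPM in the high and 33.7, 26.0 and 31.7 CPM in the mid libraries. Its 4 regions were 23.2 to 69.1 kb apart, and the regions between them were mixed. The most accessible region inside its span, chr3:156391145-156394697, was not selected and had ratios of 0.38, 0.31 and 0.01. The third locus of this chromosome was the shortest of all. At chr3:153773671-153794543, 3 selected regions lay within 20.9 kb and summed to 33.2, 29.6 and 27.5 CPM in the high and 11.8, 13.7 and 14.54 CPM in the mid libraries, 2.25 times as much in the mean of the high population. From the first to the last of these 3 loci, 5.84 Mb of chromosome 3 held 21 selected regions among 250 eligible regions (84.0 per 1000), and 64.0% of its eligible regions were above 0 in all pairs. This stretch was picked after its values were seen.

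Of the other loci that held the most regions, chr5:111021591-111108691 had 4 selected regions summing to 24.2, 24.0 and 20.1 CPM in the high and 11.3, 10.8 and 10.8 CPM in the mid libraries. Its mid libraries were nearly level, but only 1 of the 4 eligible regions beside it was above 0 in all pairs. The locus chr6:73497033-73532983 had 3 selected regions and no other eligible region in its span or within 100 kb. They summed to 39.5, 27.9 and 29.1 CPM in the high and 18.3, 15.4 and 16.7 CPM in the mid libraries, with high replicate 1 above the other high libraries. The remaining 7 loci lay on chromosomes 2, 4, 6, 10, 11 and 13, with folds of 1.88 to 2.27. None of their summed levels overlapped between populations, and nothing is read from that, since the choice used the same libraries. The widest spread was at chr13:87409301-87586429, where 3 selected regions 75.04 to 98.9 kb apart summed to 28.7, 27.2 and 25.2 CPM in the high and 12.95, 11.8 and 14.2 CPM in the mid libraries.

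**Figure D5:**
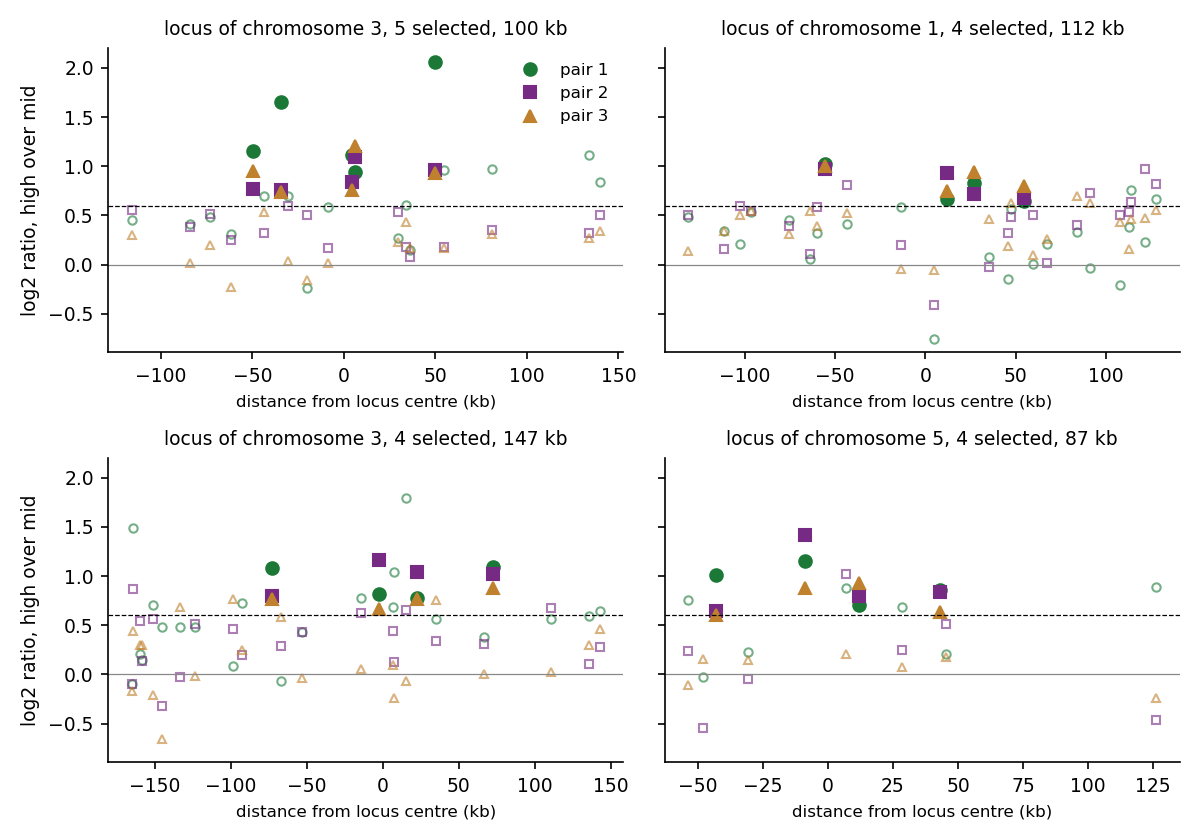
Log2 ratio of high over mid (y axis) in pairs 1 to 3 for every eligible region in and within 100 kb of the 4 loci with the most selected regions, by distance from the locus centre in kb (x axis). Filled symbols are selected regions and open symbols are others, the dashed line is the limit of 0.6, and most open symbols lie between 0 and that line.

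Over longer distances, 349 of the 563 windows of 5 Mb with an eligible region held a selected region, and 20 windows held 8 or more. The fullest were at 155 to 160 Mb of chromosome 3 with 19 among 225 eligible regions, at 120 to 125 Mb of chromosome 4 with 14 among 188, and at 60 to 65 Mb of chromosome 10 with 13 among 182. No region higher in the mid population lay in these 3 windows. Of the 134 windows with such a region, 37 also held a selected region.

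Regions were also chosen on the ratios of only 2 pairs, with the ratio of the other pair left out. The libraries of that pair still entered the mean CPM that made a region eligible. Of 5073 eligible regions that reached 0.6 in pairs 1 and 2, 21.6% reached it in pair 3, against 5.36% of all eligible regions. With pair 2 left out of the choice, 49.8% of 2203 reached 0.6 in pair 2 (10.2% of all), and with pair 1 left out, 62.7% of 1748 reached it in pair 1 (17.6% of all). The pair left out was above 0 in 87.0%, 93.5% and 94.9% of these regions for pairs 3, 2 and 1, against 57.7% to 59.4% of all eligible regions. In most regions chosen without a pair, the ratio of that pair had the same direction. Its size was smallest in pair 3, with a median of 0.35, against 0.60 in pair 2 and 0.74 in pair 1. The pairs also share shifts of whole stretches, with median surrounding ratios of 0.52, 0.35 and 0.17 around the 1096 regions. The left-out pair therefore cannot separate a region's own gain from that of its surroundings. With a single pair left out at a time, no test over samples is possible.

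In the edgeR quasi-likelihood test with a replicate block over all 118556 regions, 933 of the selected regions (85.1%) had an adjusted p-value under 0.01 in favour of the high population and none in favour of the mid population, where 2.32% of all regions were called high. This contrast is the one that chose the regions, so their count is given only as a description. Without the block 198 of the 1096 were called (0.236% of all regions), and without replicate 2 it was 170 (0.313% of all). With DESeq2 it was 459 (0.835% of all), and 432 others were given no adjusted p. The 933 made up 34.0% of the 2747 regions called high. Of the 1814 called regions that were not selected, 1581 were eligible and missed the ratio limit in at least 1 pair, 128 lay on chromosome X or Y and 105 had a mean under 2 CPM. Of the 44 regions in loci, 39 were called.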

How the data were processed

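Per the labels and the study's methods, FAST-ATAC reads were trimmed (Trimmomatic) and mapped to hg19 (BWA 0.7.15), duplicates were taken out and reads moved toward the point of Tn5 insertion. The authors found regions with MACS (1.4.2 in the submitters' processing notes) from pooled replicates, united those of both populations, dropped blacklisted ones and deposited unnormalised counts of each library in each region. Calls in single replicates were not used here. Starts were raised by 1, as the table was read as counting from 0.

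CPM, ratios and distances were computed in Python 3.11.15. Distances run from edge to edge, and regions at most 100 kb apart were chained into loci. Counts of all regions were tested with edgeR 4.0.16 in R 4.3.3 (TMM, quasi-likelihood, replicate block, Benjamini-Hochberg adjustment). DESeq2 1.42.0, other scalings, limits and distances were alternatives. Same-numbered libraries pair the samples, because deviations from the population means correlated with r = 0.302, 0.191 and 0.234 over regions within numbers and -0.257 to 0.0599 across numbers. Labels give no batch and do not say whether replicates were separate cultures. The study's methods call them biological replicates and name a batch covariate, without saying which libraries shared a batch. With the block, p-values measure the spread of the difference between populations over the 3 replicate numbers. The choice of regions and the edgeR test were each run on simulated counts with planted changes. For the choice, the simulated counts had sampling noise only, and changes were planted in regions with many counts. That run therefore does not show how the choice fares where replicates vary more or counts are low.

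The selection limits, the alternatives and the rule for named regions were chosen with earlier results of these data known. Named were the 6 loci with most selected regions, the 5 regions with the largest smallest ratio, the 5 with the highest mean CPM, the widest, the narrowest, 2 on either side of the limit, and the chromosomes with most and fewest per 1000. Other regions named inside loci, the long stretch of chromosome 3, the 5 Mb windows and the further loci were chosen after their values were seen.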

Additional observations from a re-analysis of the deposited data

Results flagged for a closer look

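Chromosome X was outside the choice of regions, and 50 of its 3169 eligible regions passed the same limits in every pair, 15.8 per 1000 against 11.1 per 1000 on the autosomes. Single autosomes ranged from 0 to 26.9 per 1000, and chromosomes 3, 4, 5 and 13 lay above chromosome X. The difference was not tested. With 3 libraries a population, no group was large enough for a check of single outlying libraries.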

How the results depend on the processing

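The number of selected regions depended on the scaling and on the limits, and the values below give in turn the number of regions, the percent with another within 100 kb, the number of loci with 3 or more, and the median width in bp. TMM library sizes shifted the log2 ratios of the eligible regions by a median of -0.13, -0.06 and -0.05 in pairs 1 to 3 and gave 622, 11.9% and 5. DESeq2 size factors gave 569, 9.84%, 4 and 907. Subtracting chromosome medians gave 431, 5.80%, 2 and 905, of which 390 were among the 1096. A loess fit on mean log2 CPM gave 504, 8.93%, 5 and 959.5. Subtracting the regions within 500 kb, chosen after seeing the data, gave 199, 2.01%, 0 and 890. A pseudocount of 0.25 gave 21.9% and 890 bp, and one of 1 gave 666, 13.2%, 6 and 979.5. A limit of 0.5 gave 2294, 28.9% and 63, one of 0.8 gave 220, 4.55%, 0 and 906.5, and one of 1 gave 35, 0%, 0 and 854. A floor of 1 CPM gave a width of 873.5, and one of 4 CPM gave 676, 12.6%, 3 and 1090. At 50 kb 10.6% had a neighbour, and at 200 kb 27.9%, in 29 loci. With no replicate block, where every high library had to exceed every mid library by 0.6, there were 331, 6.65%, 1 and 980. Without 1 of the replicates the choice rests on fewer pairs and gave 1748 to 5073 regions, 22.4% to 53.8%, 25 to 349 loci and 866 to 915 bp.

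Among the 1096, calls numbered 198 with no replicate block (0.236% of all regions were called high), 459 in DESeq2 (0.835%), 170 to 679 without 1 of the replicates (0.313% to 2.88%, with 170 without replicate 2), and 821 to 1094 under the other alternatives (2.08% to 6.03%). The share reaching 0.6 in the pair held out was 62.7% for pair 1 and 49.8% for pair 2, and for pair 3 it was 20.3% with TMM, 16.6% with loess, 24.4% with a floor of 4 CPM and 19.4% with no replicate block in the choice. Chromosome 19 had no selected region except with chromosome medians or nearby regions subtracted, or without replicate 2 or 3. The share of unselected regions near a selected one with all ratios above 0 was 40.8% to 47.1% under the scalings tried, against 21.5% to 23.2% farther away. Beyond the construction of each alternative, causes were not tested. Depth limits single regions too, as 13 of the 1096 had under 20 counts in some library.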
